A study of Mus musculus with 9 samples.

Results

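Rmdn2 (regulator of microtubule dynamics 2, ENSMUSG00000036368) gave 6 of the 11312 circular RNAs (circRNAs) counted in 9 libraries of mouse liver. They are all the rings that the deposited table assigns to this host gene. The gene was selected on measured values, its summed ring reads being lower after acetaminophen than after saline in an earlier look at these data, so values for that pair of groups are given as a description, without a test. The mice were wild-type C57 BL6 animals, 8 weeks old and about 20 g in weight, and each group had 3 libraries. In the dmPGE2+APAP group, 300 µg/kg dmPGE2, a long-lived relative of prostaglandin E2, was injected into the peritoneum 1 h before 500 mg/kg acetaminophen (APAP). The APAP group received 500 mg/kg APAP by the same route, and the control group received saline. Livers were taken 6 h after APAP. Nothing in the labels says which library came from which animal, and p-values therefore speak of the spread among libraries only.

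A circRNA forms when the end of an exon is spliced back to the start of the same or an earlier exon, which leaves a closed ring without a cap or a poly(A) tail. Several rings of one gene can share a start and differ in their end, and reads across each back-splice junction tell them apart. Rmdn2 belongs to a small family named after RMD-1 of Caenorhabditis elegans, a microtubule-binding protein that acts in chromosome segregation. Its relative Rmdn3, also called PTPIP51, sits in the outer mitochondrial membrane and tethers mitochondria to the endoplasmic reticulum. Acetaminophen is made toxic mainly in pericentral hepatocytes, the cells around the central vein, where cytochrome P450 enzymes turn it into a reactive metabolite.

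In GRCm38, the build of the deposited coordinates, Rmdn2 lies on the plus strand at chr17:79611863-79693192, and GENCODE M21 gives it 9 transcripts. Exons are numbered here by the transcript Rmdn2-201, which has 11. The leading ring, novel_circ_0005331, spans chr17:79650302-79659473 and joins the end of exon 5 to the start of exon 3. It is called the exon 3–5 ring below. The exon 3–11 ring (novel_circ_0005333, chr17:79650302-79681682), the exon 3–10 ring (novel_circ_0005332, chr17:79650302-79672573) and the exon 3–4 ring (novel_circ_0005330, chr17:79650302-79651801) begin at the same base. The end of the exon 3–11 ring falls inside exon 11 of Rmdn2-201, at an exon end of other annotated Rmdn2 transcripts. Of the remaining pair, the exon 6–10 ring (novel_circ_0005335, chr17:79666871-79672573) shares its end with the exon 3–10 ring. The other, novel_circ_0005327 (chr17:79627462-79659473), starts upstream at an exon of other transcripts and shares its end with the leading ring.

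The 25 bases on each side of the back-splice junction are shown for 5 of the rings, because this stretch is what distinguishes the rings in the reads. They were read from the GENCODE M21 transcripts. Lower case is the end of the last exon, and capitals are the start of the first exon.
exon 3–5 ring: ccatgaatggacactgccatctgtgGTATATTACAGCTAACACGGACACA
exon 3–11 ring: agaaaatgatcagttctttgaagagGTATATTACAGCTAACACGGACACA
exon 3–10 ring: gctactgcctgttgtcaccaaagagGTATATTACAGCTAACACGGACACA
exon 3–4 ring: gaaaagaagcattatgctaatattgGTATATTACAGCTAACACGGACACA
exon 6–10 ring: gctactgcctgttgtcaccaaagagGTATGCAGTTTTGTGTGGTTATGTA

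The first 4 rings carry the same acceptor side, the start of exon 3, and the exon 3–10 and exon 6–10 rings carry the same donor side, the end of exon 10. The body of the leading ring, as annotated, is exon 3 (175 bases), exon 4 (103 bases) and exon 5 (61 bases), printed in full because this ring holds most of the Rmdn2 reads.
exon 3: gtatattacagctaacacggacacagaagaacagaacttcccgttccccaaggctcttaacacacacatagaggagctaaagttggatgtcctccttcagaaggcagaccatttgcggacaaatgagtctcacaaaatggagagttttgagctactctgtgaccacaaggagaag
exon 4: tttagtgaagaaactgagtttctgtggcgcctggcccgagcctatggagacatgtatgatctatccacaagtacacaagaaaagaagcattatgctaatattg
exon 5: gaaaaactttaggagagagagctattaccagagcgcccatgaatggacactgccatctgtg

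These 3 exons add up to 339 bases with 44.8% G and C, or 113 whole codons, and hold 0 stop codons in the reading frame of the host protein. The exons between the ends of the exon 3–11 ring add up to 777 bases, or 259 codons, also with 0 stop codons in that frame. Those of the exon 3–10 ring (727 bases), the exon 6–10 ring (388 bases) and the exon 3–4 ring (278 bases) do not divide into whole codons. The intron before the shared start is 28529 bases long, against 7397 bases after exon 5, 9059 bases after exon 10 and 7611 bases after exon 4. Back-splice reads do not show which inner exons a ring retains. The deposited exon list of the leading ring adds a stretch at chr17:79650822-79650910 that matches no M21 exon of Rmdn2 at both ends. Those of the other rings named by exons leave out annotated exons. They list 6 exons of 8 for the exon 3–10 ring, 7 of 9 for the exon 3–11 ring and 3 of 5 for the exon 6–10 ring. The list of the exon 3–4 ring holds 1 exon of 2, with 103 bases, and lacks the shared start base. That of novel_circ_0005327 also lacks the start base of its ring. The deposited lists of the exon 3–5 and exon 3–11 rings add up to 428 and 623 bases, which do not divide into whole codons, so that property holds for the annotated exons alone.

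**Figure D1:**
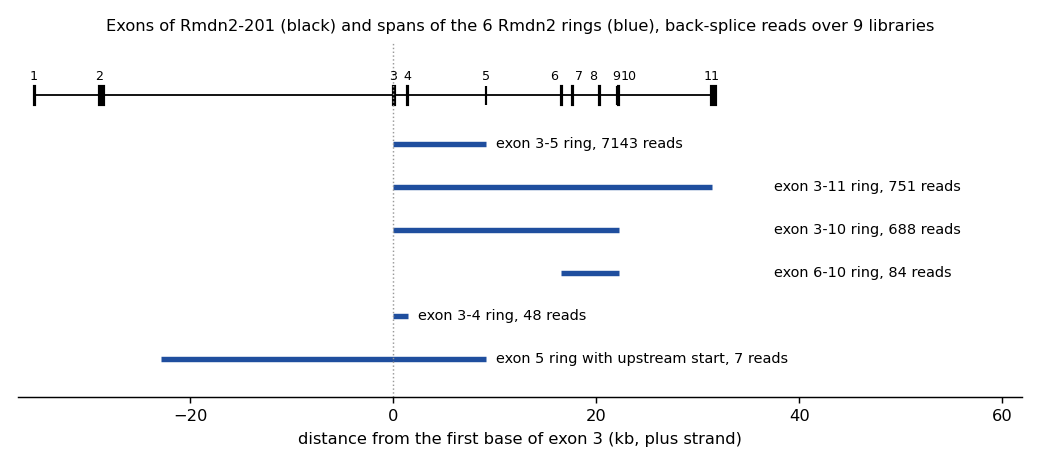
Exons of Rmdn2-201 (black boxes, numbered) and the genomic span of each Rmdn2 ring (blue bars), drawn to scale as distance in kb from the first base of exon 3, with the back-splice reads of each ring over the 9 libraries. The bars of 4 rings begin at the dotted line, and the exon 3–5 ring holds 7143 reads.

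One library stood apart. Control 3 held 4362 back-splice reads, 25.7-fold below the median of the other 8, which held 69268 to 154449. It listed 739 circRNAs, where the others listed 3181 to 5214. Over 391 circRNAs with non-junction reads listed in all 9 libraries, back-splice reads made up 3.17% of back-splice plus non-junction reads in control 3 and 49.4% to 60.9% in the others. Levels below are back-splice reads scaled to counts per 1000000 (CPM) of the library's back-splice total, so control 3 enters them with few reads, and the fits and comparisons that use the controls are also given without it where the value moves. The columns matched to the controls carry a code that no label explains and were assigned by elimination. No library lists a count of 1, the lowest being 2, so a single read may stand behind a listed 0.

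The exon 3–5 ring held 7143 back-splice reads over the 9 libraries, 81.9% of all Rmdn2 back-splice reads. The exon 3–11 ring followed with 751 reads (8.61%) and the exon 3–10 ring with 688 (7.89%). The exon 6–10 ring had 84 reads (0.963%), the exon 3–4 ring 48 (0.550%) and novel_circ_0005327 only 7, all of them in control 2. The first 3 rings were read in all 9 libraries, the exon 6–10 ring in 8 and the exon 3–4 ring in 7. A filter of at least 5 reads in at least 3 libraries left 5 of the 6 rings, without novel_circ_0005327, among 4331 rings tested.

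Summed over its rings, Rmdn2 was among the leading circRNA hosts of these livers in every library. Its sum ranked 9, 3 and 5 among hosts in dmPGE2+APAP libraries 1 to 3, 12, 9 and 14 in the APAP libraries, and 3, 4 and 1 in the control libraries. In the dmPGE2+APAP libraries the sum was 7708, 11129.9 and 10323 CPM (929, 1103 and 1185 reads). The APAP libraries had 6285, 7903 and 6539.8 CPM (683, 865 and 453 reads), and the control libraries 12082, 11933 and 19716 CPM (1866, 1551 and 86 reads). All 3 APAP libraries were below all 3 control libraries, and the dmPGE2+APAP libraries lay between, overlapping the APAP range through dmPGE2+APAP 1 and staying below the lowest control. In bulk liver RNA, fewer cells of a type and less RNA per cell cannot be told apart.

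The group means were 9720.2 ± 1789 CPM in dmPGE2+APAP livers, 6909 ± 869.8 CPM in APAP livers and 14577 ± 4451 CPM in control livers (SD, n = 3 each). The control mean without control 3 was 12008 ± 105 CPM (n = 2). APAP with control is the contrast that chose the gene. Its fitted log2 fold change of the host sum was -0.82 ± 0.20 (SE, edgeR), 1.76-fold lower in APAP livers, and it was -0.85 without control 3. Without scaling factors the fitted value was -1.08. The ratio of mean CPM was 2.11-fold lower, and 1.74-fold lower without control 3. In the fit of host sums the TMM scaling factor of control 3 was 1.67, against 0.915 to 0.978 in the other libraries. By non-overlapping CPM ranges, 2.25% of the 2358 tested hosts were lower in APAP than in control livers in the same way, and 10.3% without control 3, from which nothing is read here because the choice of the gene fixes it.

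**Figure D2:**
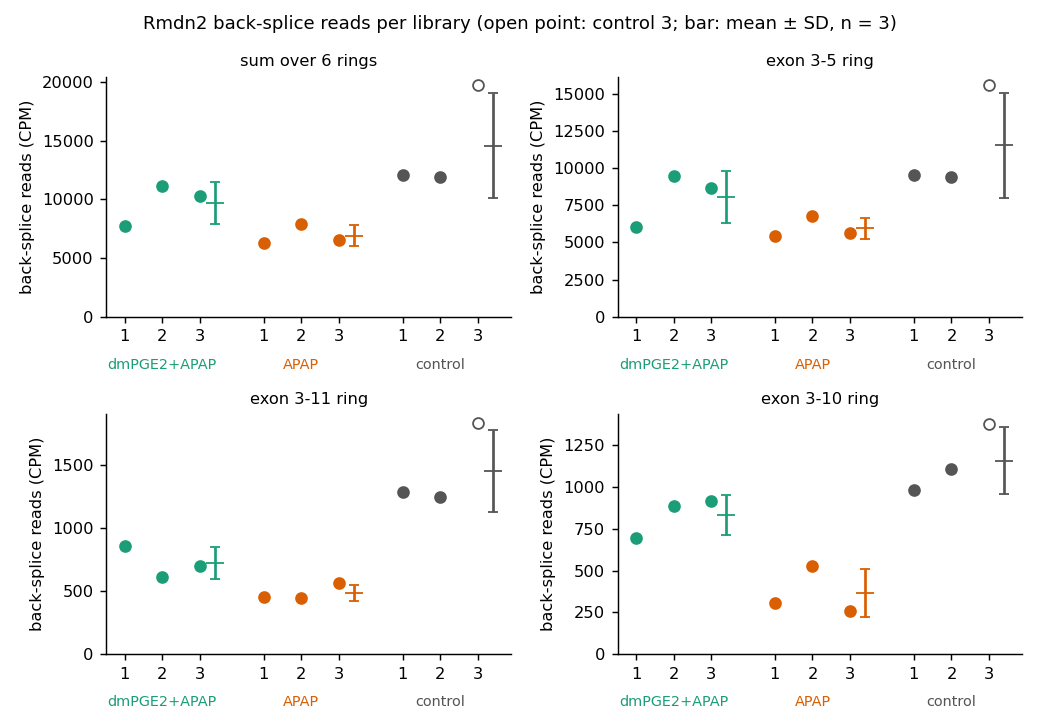
Back-splice reads in CPM for the sum over the 6 Rmdn2 rings and for the exon 3–5, exon 3–11 and exon 3–10 rings, 1 point per library, with mean ± SD bars (n = 3) and control 3 as an open point. In each panel the 3 APAP libraries lie below all 3 control libraries, and in the panels of the exon 3–11 and exon 3–10 rings the dmPGE2+APAP libraries lie between them.

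The other comparisons ask how dmPGE2 given before APAP related to the ring reads. They share the APAP or the control libraries with the contrast that chose Rmdn2 and with each other, so they are not independent of it. Between dmPGE2+APAP and APAP livers, the host sum had a log2 fold change of 0.51 ± 0.20 (SE), 1.42-fold higher in dmPGE2+APAP livers. It did not pass edgeR's quasi-likelihood test with Benjamini-Hochberg adjustment (unadjusted p = 0.0106, adjusted p = 1.00 over 2358 hosts). Without control 3 the fold change was 0.51 ± 0.12 and the edgeR adjusted p 0.108. In this comparison 0.0% of hosts were called higher and 0.127% lower, and without control 3 these were 0.0424% and 0.127%. By edgeR 64 hosts had an unadjusted p under 0.05, and DESeq2 called 1 host and limma-voom 0, neither of them calling Rmdn2.

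Between dmPGE2+APAP and control livers, the log2 fold change of the host sum was -0.31 ± 0.20 (SE), 1.24-fold lower in dmPGE2+APAP livers. It did not pass either (edgeR adjusted p = 1.00, and 1.00 without control 3), where 0.0424% of hosts were called higher and 0.127% lower (0.0424% and 0.0848% without control 3). With TMM scaling the median log2 fold change over all hosts was 0.20 in this comparison, and without scaling factors 0.11. The Rmdn2 value without scaling factors was -0.58. The CPM ranges did not overlap, and the same held in the lower direction for 2.8% of hosts, or 10.4% without control 3.

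The exon 3–5 ring, the leading ring, had 6048, 9445 and 8651 CPM in dmPGE2+APAP libraries. It had 5411, 6770.0 and 5645 CPM in APAP libraries and 9531, 9425 and 15589 CPM in control libraries. The dmPGE2+APAP range overlapped both others. Its log2 fold change was 0.49 ± 0.32 (SE) in dmPGE2+APAP against APAP livers and -0.12 ± 0.32 against control livers (-0.28 without control 3), and neither passed (edgeR adjusted p = 1.00 for both). Against control livers, 0.0693% of rings were called higher and 0.0462% lower. The ring's log2 fold change in APAP against control livers, given as a description, was -0.60 ± 0.32, and -0.76 without control 3.

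The exon 3–10 ring, which runs past the leading ring by 5 exons of Rmdn2-201, had 697, 888 and 915 CPM in dmPGE2+APAP libraries (84, 88 and 105 reads). In APAP libraries it had 304, 529.9 and 259.9 CPM (33, 58 and 18 reads), and in control libraries 984, 1108 and 1376 CPM (152, 144 and 6 reads). All dmPGE2+APAP libraries were above all APAP libraries and below all control libraries. Of the 5 tested Rmdn2 rings, the exon 3–10 and exon 3–11 rings had non-overlapping ranges in the higher direction between dmPGE2+APAP and APAP livers, a pattern that 5.03% of the 4331 tested rings showed. The log2 fold change of the exon 3–10 ring against APAP livers was 1.21 ± 0.44 (SE), or 2.32-fold, with an edgeR unadjusted p of 0.00542 and an adjusted p of 1.00. Without control 3 it was 1.21 ± 0.30 with an edgeR adjusted p of 0.174, so it did not pass in either fit. By edgeR, 0.0231% of rings were called higher and 0.0462% lower in dmPGE2+APAP against APAP livers.

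The exon 3–11 ring, the longest of the rings with a shared start, had 863, 616 and 697 CPM in dmPGE2+APAP libraries. It had 451, 448 and 563 CPM in APAP libraries and 1288, 1246 and 1834 CPM in control libraries. The 3 groups did not overlap, in the same order as for the exon 3–10 ring. Its log2 fold change was 0.65 ± 0.42 (SE) in dmPGE2+APAP against APAP livers (edgeR adjusted p = 1.00) and -0.68 ± 0.42 against control livers (edgeR adjusted p = 0.982), where it was -0.84 without control 3 (edgeR adjusted p = 0.733). Both long rings were also below every control library in dmPGE2+APAP livers, a pattern that 1.73% of tested rings showed with all 9 libraries and 10.4% without control 3. The fitted log2 fold change of the exon 3–10 ring against control livers was -0.20 ± 0.43 (SE), and it did not pass (edgeR unadjusted p = 0.647). The ratio of mean CPM of this ring was 1.39-fold lower, and 1.26-fold lower without control 3. In the fit of rings the TMM scaling factor of control 3 was 2.18, against 0.865 to 1.04 in the other libraries.

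In APAP against control livers, again as a description, the log2 fold change was -1.41 ± 0.45 (SE) for the exon 3–10 ring and -1.33 ± 0.43 for the exon 3–11 ring (-1.57 and -1.48 without control 3). The 3 leading rings had non-overlapping ranges in this contrast, as 1.82% of tested rings did in the lower direction, and 10.8% without control 3. The ratio of mean CPM was 2.99-fold lower in APAP than in control livers for the exon 3–11 ring and 3.17-fold lower for the exon 3–10 ring, against 1.94-fold for the exon 3–5 ring. Without control 3 these were 2.60-fold, 2.87-fold and 1.60-fold.

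The remaining rings were too thinly read to compare. The exon 6–10 ring, the only tested one without the shared start, had 9, 10 and 3 reads in dmPGE2+APAP libraries, 7, 10 and 0 in APAP libraries and 28, 13 and 4 in control libraries. The exon 3–4 ring had 3, 8 and 4 reads in dmPGE2+APAP libraries, 6, 7 and 5 in APAP libraries and 15, 0 and 0 in control libraries. Standard errors of their log2 fold changes were 1.16 to 2.12, and no edgeR adjusted p was below 0.999 for dmPGE2+APAP livers against either group.

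Ring use is the share of each ring among the Rmdn2 back-splice reads of a library. It does not depend on the library total. The exon 3–5 ring took 78.5%, 84.9% and 83.8% of the reads in dmPGE2+APAP libraries. It took 86.1%, 85.7% and 86.3% in APAP libraries, and 78.9%, 79.0% and 79.1% in control libraries. The APAP and control libraries were each tight, and the dmPGE2+APAP libraries were split, with dmPGE2+APAP 1 at the control level and the other 2 just under the APAP level. By counting error alone (95% Wilson intervals), the share in dmPGE2+APAP 1 lay between 75.7% and 81.0% and that in control 3, from 86 reads, between 69.3% and 86.3%. Reads made by PCR are not independent molecules, so such intervals cover counting error only.

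The mean share of the leading ring was 82.4% ± 3.42 in dmPGE2+APAP livers, 86.0% ± 0.330 in APAP livers and 79.0% ± 0.0923 in control livers (SD, n = 3 each). The difference of dmPGE2+APAP from APAP livers was -3.65 percentage points (two-sided exact permutation p = 0.1, the smallest that 3 against 3 libraries allow, and 0.4 after adjustment over 4 share comparisons). Without dmPGE2+APAP 1 that difference was -1.69 points. Against control livers it was 3.40 points (exact permutation p = 0.4, adjusted 0.533), and 5.35 points without dmPGE2+APAP 1 (exact permutation p = 0.1). The APAP livers were 7.04 points above the control livers, and 7.09 without control 3, given as a description.

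The share of the leading ring was compared with that of other hosts. Among 36 hosts with at least 20 reads in all 9 libraries, the share of the leading ring had non-overlapping ranges in 8.33% in the lower direction and 5.56% in the higher direction between dmPGE2+APAP and APAP livers, and 8 of them had a larger difference than Rmdn2 in either direction. Their median absolute difference was 1.90 points in that comparison and 2.93 points in APAP against control livers. For APAP against control livers the ranges were apart in 8.33% in each direction (11.1% in the higher direction without control 3), and 8 of the 36 again had a larger difference. For dmPGE2+APAP against control livers they were apart in 2.78% in the higher direction and 8.33% in the lower, and Rmdn2 was not among them. Without control 3, 514 hosts could be compared, and 311 had a larger difference between dmPGE2+APAP and APAP livers than Rmdn2, and 198 between APAP and control livers. Hosts entered this comparison from 20 reads per library, where counting error is larger than for Rmdn2. Over these 514 hosts the median share of the leading ring was 67.4%, and 162 had a higher share than the 82.9% of Rmdn2.

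**Figure D3:**
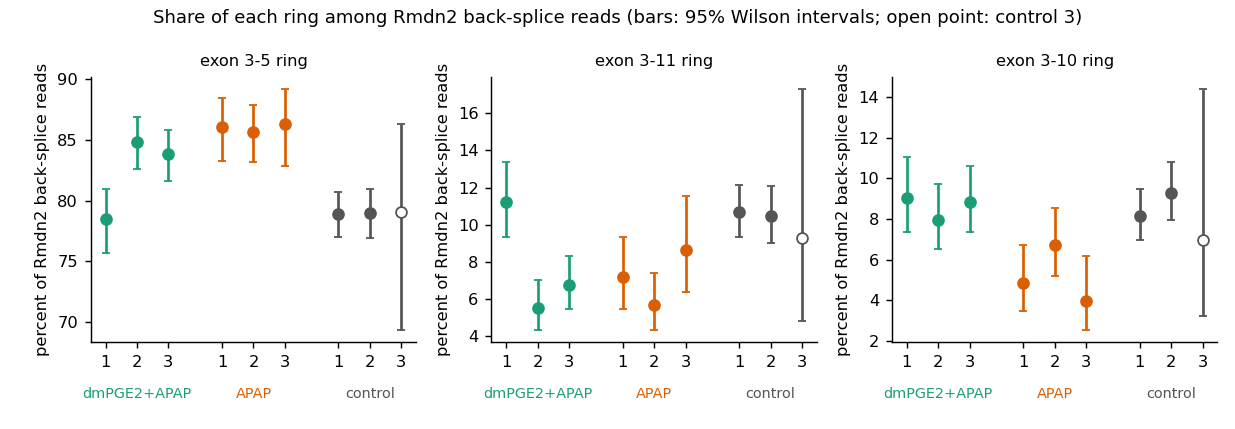
Share of the exon 3–5, exon 3–11 and exon 3–10 rings among the Rmdn2 back-splice reads of each library, in percent, with 95% Wilson intervals and control 3 as an open point (the y axes do not start at 0). The exon 3–5 ring lies near 86% in the 3 APAP libraries and near 79% in the 3 control libraries, and the dmPGE2+APAP libraries spread over 78.5% to 84.9%.

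The reads outside the leading ring were mostly those of the 2 long rings. The exon 3–10 and exon 3–11 rings together took 20.2%, 13.5% and 15.6% of Rmdn2 reads in dmPGE2+APAP libraries. They took 12.0%, 12.4% and 12.6% in APAP libraries and 18.8%, 19.7% and 16.3% in control libraries. The APAP libraries were the 3 lowest, and the dmPGE2+APAP libraries overlapped the control range. The exon 3–10 ring alone took 9.04%, 7.98% and 8.86% in dmPGE2+APAP libraries, 4.83%, 6.71% and 3.97% in APAP libraries and 8.15%, 9.28% and 6.98% in control libraries, so that its dmPGE2+APAP range overlapped the control range and not the APAP range. Such a gap in the higher direction between dmPGE2+APAP and APAP livers was shown by 4.89% of 1984 tested rings of hosts with at least 20 reads in each of the 8 deeper libraries. The exon 3–11 ring took 11.2%, 5.53% and 6.75% in dmPGE2+APAP libraries, 7.17%, 5.66% and 8.61% in APAP libraries and 10.7%, 10.4% and 9.30% in control libraries. The high share in dmPGE2+APAP 1 was thus mainly that of the exon 3–11 ring.

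Unequal use of rings within a host was tested across all hosts with at least 2 tested rings, with edgeR's diffSpliceDGE (915 hosts and 3049 rings). Rmdn2 did not pass between dmPGE2+APAP and APAP livers (adjusted p = 1.00 by edgeR) or between dmPGE2+APAP and control livers (adjusted p = 0.997 by edgeR). In both comparisons 0.0% of hosts passed by edgeR, where 43 and 40 hosts had an unadjusted p under 0.05. By diffSplice of limma Rmdn2 did not pass either (adjusted p of at least 0.869). Relative to the other Rmdn2 rings, the exon 3–10 ring had a log2 fold change of 0.67 in dmPGE2+APAP against APAP livers and -0.01 against control livers, and the leading ring -0.06 and 0.07 (edgeR adjusted p = 1.00 for each). Of the 3049 rings, 0.0% were called in the first comparison and 0.0328% in the second, all of them higher. The shared start of exon 3 was used by 99.0%, 99.1% and 99.7% of Rmdn2 back-splice reads in dmPGE2+APAP libraries, 99.0%, 98.8% and all of them in APAP libraries, and 98.5%, 98.7% and 95.3% in control libraries. Every library thus used one start for at least 95.3% of the reads.

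The circular share is the percent of back-splice reads among back-splice plus non-junction reads at the same sites, where non-junction reads are those the authors listed as not crossing the back-splice. Lists could be read for the 3 leading rings in all libraries and for novel_circ_0005327 in control 2. The lists of the exon 3–4 and exon 6–10 rings had been turned into a number and could not be split. For the leading ring the circular share was 77.9%, 78.9% and 75.3% in dmPGE2+APAP libraries, 77.8%, 78.8% and 83.7% in APAP libraries and 77.0%, 72.7% and 16.0% in control libraries. Apart from control 3, every library thus held more back-splice than non-junction reads at this ring. Its share was above that of 93.5% to 98.2% of the rings with at least 50 back-splice plus non-junction reads in each library, control 3 included, and the median of such rings was at most 14.3% in the other 8 libraries and 2.53% in control 3.

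The long rings had lower circular shares than the leading ring in every library. The exon 3–10 ring had 49.1%, 44.2% and 42.5% in dmPGE2+APAP libraries, 33.7%, 36.7% and 26.1% in APAP libraries and 52.2%, 37.9% and 2.31% in control libraries. The exon 3–11 ring had 58.4%, 37.2% and 40.2% in dmPGE2+APAP libraries, 44.5%, 38.0% and 48.8% in APAP libraries and 59.9%, 43.2% and 3.08% in control libraries. The dmPGE2+APAP range of the exon 3–10 ring lay above its APAP range, as in 7.73% of the 1125 rings with lists in the 8 deeper libraries, and the difference was not tested. The ranges of the other 2 rings overlapped. Rings with the same start share the non-junction reads there, so these values are not independent of each other.

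Over all readable rings the circular share was 69.4% ± 2.35 in dmPGE2+APAP livers, 70.4% ± 1.98 in APAP livers and 45.5% ± 32.9 in control livers (SD, n = 3 each). The difference of dmPGE2+APAP from APAP livers was -1.07 points (two-sided exact permutation p = 0.6, adjusted 0.6), with a value of 0.23 points without dmPGE2+APAP 3 and 0.07 points without APAP 3. Against control livers it was 23.9 points (exact permutation p = 0.4, adjusted 0.533), and 5.45 points without control 3 (exact permutation p = 0.7). The sum for control 2 includes novel_circ_0005327, whose list exists in that library alone. Over the 3 rings with lists in all libraries the difference was 21.6 points (exact permutation p = 0.4), and 2.02 points without control 3 (exact permutation p = 0.7). Since 0.1 is the smallest value that the exact permutation test can give here, no difference of any size could pass.

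**Figure D4:**
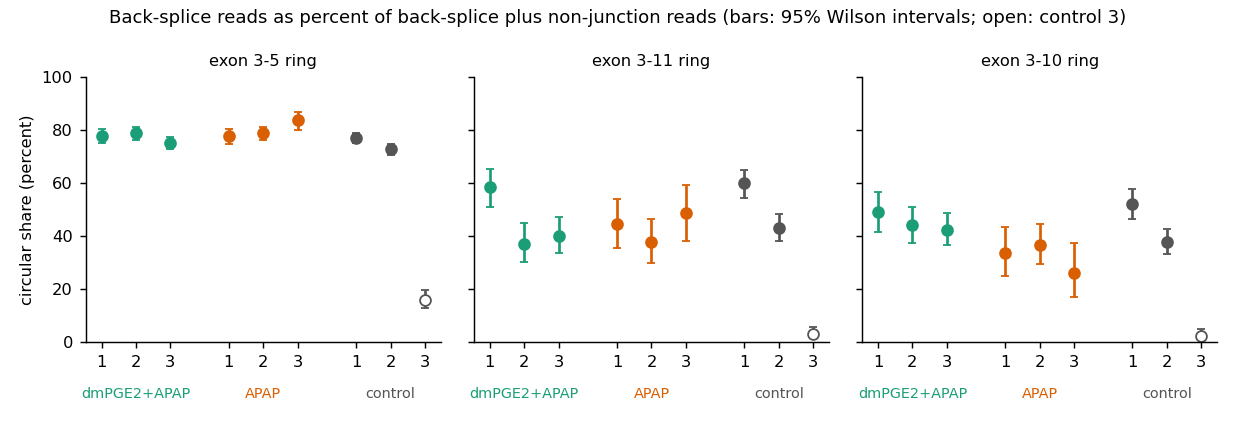
Circular share in percent (back-splice reads of back-splice plus non-junction reads) of the exon 3–5, exon 3–11 and exon 3–10 rings in each library, with 95% Wilson intervals and control 3 as an open point. The exon 3–5 ring lies between 72.7% and 83.7% outside control 3, and control 3 is the lowest library in each panel.

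The non-junction reads themselves give a second readout of the locus. At the leading ring there were 207, 251 and 325 such reads in dmPGE2+APAP libraries, 168, 199 and 76 in APAP libraries and 439, 459 and 356 in control libraries. Scaled per 1000000 non-junction reads of the 391 rings with lists in all libraries, these were 7369, 9833 and 12319 in dmPGE2+APAP libraries. The APAP libraries had 6486, 8202 and 3313 on this scale, and the control libraries 14756, 16909 and 5048. Outside control 3 the highest values were those of the control libraries, and the dmPGE2+APAP and APAP ranges overlapped. Back-splice reads of the same ring, per 1000000 back-splice reads of those 391 rings, were 20163, 30417 and 28349 in dmPGE2+APAP libraries, 18356, 22369 and 17491 in APAP libraries and 31821, 30013 and 29488 in control libraries. On that scale control 3 lay beside the other control libraries for back-splice reads. The scale itself depends on control 3, because a ring needs a list there to be among the 391. These rings hold 2306 of the 4362 back-splice reads of control 3, but 46259 of 154449 in control 1 and 40815 of 129971 in control 2.

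By edgeR on non-junction counts, the leading ring's log2 fold change was 0.74 ± 0.61 (SE) in dmPGE2+APAP against APAP livers (adjusted p = 0.989 over 390 rings) and -0.35 ± 0.60 against control livers (adjusted p = 0.915). Without control 3 the edgeR values were 0.75 ± 0.24 (adjusted p = 0.158 over 1111 rings) and -0.74 ± 0.26 (adjusted p = 0.135). None of them passed. With all libraries 0.0% of rings were called in either comparison, and without control 3 this was 0.0% in the first and 1.35% higher and 0.18% lower in the second. For APAP against control livers, as a description, the log2 fold change of the non-junction reads was -1.09 ± 0.61, and -1.49 without control 3. Both read types of this ring thus had negative fold changes. The scaled non-junction reads of control 3 (5048) nevertheless lay below those of APAP 1 (6486) and APAP 2 (8202).

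**Figure D5:**
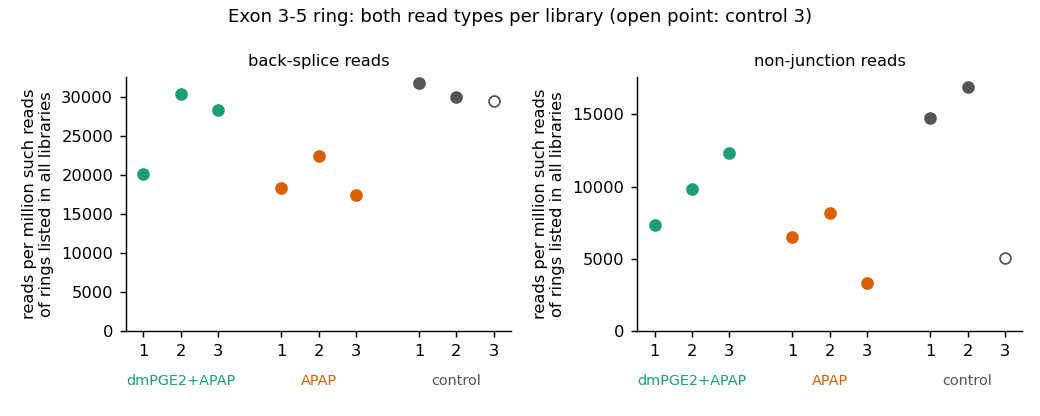
Back-splice reads (left) and non-junction reads (right) of the exon 3–5 ring in each library, per 1000000 such reads of the 391 rings with lists in all 9 libraries, with control 3 as an open point. The APAP libraries span 17491 to 22369 for back-splice and 3313 to 8202 for non-junction reads, and control 1 and 2 lie above them in both panels.

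Markers of other cells and liver zones are given beside the Rmdn2 sum. Of 12 genes of pericentral hepatocytes, where acetaminophen is activated, 8 had rings, and their summed level was 3340.0 to 4547 CPM in dmPGE2+APAP libraries, 2569.7 to 3184 CPM in APAP libraries and 4461 to 8941 CPM in control libraries (4461 to 5086 without control 3). Glul, Rgn, Lgr5 and Tbx3 of this list gave no ring. Of the 6 tested, 0 passed edgeR in any comparison, where 0.254% of all hosts were called higher and 0.0848% lower in APAP against control livers. At an unadjusted p under 0.05, 2 of the 6 were counted in that contrast, against 5.34% of all hosts, and 0 in the others. In the same contrast, 2 of 5 tested periportal and 2 of 8 tested general hepatocyte genes were counted too, in either direction. Alb, one of the general hepatocyte genes counted, was higher in APAP livers (log2 fold change 2.41 ± 1.12, SE), and 4 of these 8 genes were below 0. The general hepatocyte list shares Slco1b2 with the pericentral list and Cps1 with the periportal list. The median log2 fold change was 1.10 in dmPGE2+APAP against APAP livers, where it was 0.03 over all hosts. In APAP against control livers it was -1.01, against 0.15 over all hosts. The same medians were 1.17 and -0.91 for the 5 tested periportal genes and 1.36 and -1.32 for the 3 tested endothelial genes. The endothelial genes with rings summed to at most 291 CPM in any library. For the 8 tested general hepatocyte genes the medians were 0.16 and -0.07. They were 0.29 and -0.05 for 2 macrophage genes and 0.29 and 0.83 for 1 cholangiocyte gene. Medians of about the pericentral size were thus seen in the periportal and endothelial lists too, but not in these others. Directions within the lists differed. In APAP against control livers, 6 of 6 pericentral, 3 of 5 periportal and 2 of 3 endothelial genes were below 0. In dmPGE2+APAP against APAP livers these were 0, 1 and 1. The 7 periportal genes with rings, of 11, had summed levels of 3098 to 3758 CPM in dmPGE2+APAP libraries, 3380.4 to 3975 CPM in APAP libraries and 2063 to 3134 CPM in control libraries. The part of these cells in the Rmdn2 values was not tested. Of 15 general hepatocyte genes, 11 had rings, with summed levels of 15499 to 20177 CPM in dmPGE2+APAP libraries, 17478 to 21663 CPM in APAP libraries and 17067 to 26364 CPM in control libraries (17067 to 19443 without control 3). None of the 6 neutrophil or 7 stellate cell markers gave a ring in any library, and 2 of 9 macrophage markers did.

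The rest of the Rmdn family was hardly read as rings. Rmdn1 had 1 ring with 12 reads, all in dmPGE2+APAP 3. Rmdn3, the mitochondrial tether, had 1 ring with 3, 0 and 0 reads in dmPGE2+APAP libraries, 8, 7 and 0 in APAP libraries and 17, 0 and 0 in control libraries. Of 62 genes of microtubule regulation and of the Rmdn3 tether, 40 had rings, 26 were tested and 0 passed edgeR in any of the 3 comparisons. At an unadjusted p under 0.05 by edgeR there were 1 in dmPGE2+APAP against APAP livers, 2 in dmPGE2+APAP against control livers and 0 in APAP against control livers, where over all hosts the shares were 2.71%, 4.24% and 5.34%. Their median log2 fold change was -0.33 in dmPGE2+APAP against APAP livers, 0.00 in dmPGE2+APAP against control livers and 0.15 in APAP against control livers, where all hosts had 0.03, 0.20 and 0.15. Vapa, the endoplasmic reticulum partner of Rmdn3, was the most abundant, with a log2 fold change of -0.45 ± 0.33 (SE) in dmPGE2+APAP against APAP livers. Mark3, a kinase of microtubule-associated proteins, had 0.11 ± 0.33, and Cep350, a centrosome protein, had -0.26 ± 0.35 in the same comparison, each with an edgeR adjusted p of 1.00.

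Over the 8 libraries other than control 3, log2 CPM of the leading ring and the exon 3–10 ring had a Pearson correlation of 0.90, the leading ring and the exon 3–11 ring 0.63, and the 2 long rings 0.73. These are descriptions over 8 libraries that share the groups, the library totals and, within a library, the same RNA. Of 1168 hosts, those whose sums were most alike to that of Rmdn2 by Pearson correlation were Parp9 (0.94), Eed (0.88), Map2k1 (0.85), Pcbp2 (0.85) and Cyp2c70 (0.85), and the most opposite was Rsu1 (-0.92). Parp9, a member of the ADP-ribosyltransferase family, had 10, 16 and 12 reads in dmPGE2+APAP libraries, 7, 11 and 5 in APAP libraries and 27, 25 and 0 in control libraries. Cyp2c70, a bile acid hydroxylase of mouse liver, had 1435, 1907 and 1681 CPM in dmPGE2+APAP libraries, 1206, 1453 and 1140.5 CPM in APAP libraries and 1625, 1523 and 8712 CPM in control libraries. Rsu1, an adaptor at cell adhesions, had 183, 141 and 139 CPM in dmPGE2+APAP libraries, 469, 228 and 375 CPM in APAP libraries and 32.4, 61.6 and 0 CPM in control libraries.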

How the data were processed

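The deposited table gives, per the file headers, position, strand, host gene and a whole-number count of back-splice reads per circRNA and library, with a TPM value that was not used for tests. TPM as deposited by the authors equals the count times 1 constant per library. Per the labels' protocols, each library began with 1 µg of total RNA, lost its ribosomal RNA and kept strand through dUTP. The submitters' processing notes name HISAT2 and GRCm38 (mm10) but not what they served for. The circRNA caller is not given in the sources used here. Starts were raised by 1 to count from 1. Non-junction reads came from the lists in the deposited table, of which 10490 of 11312 could be read.

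Rings and host sums with at least 5 reads in at least 3 libraries (4331 and 2358) were fitted with edgeR 4.0.16 in R 4.3.3 (TMM scaling, quasi-likelihood F test, all 9 libraries, Benjamini-Hochberg adjustment over all tested, threshold 0.05). Ring use was fitted with diffSpliceDGE. Shares were compared by two-sided exact permutation tests over 20 arrangements, and intervals are Wilson's at 95%. SE is the fold change divided by the square root of F. Alternatives were DESeq2 1.42.0, limma-voom (limma 3.58.1), no scaling, other filters, a replicate block and leaving out each library. The fits were tested on simulated data with changes planted in APAP libraries alone, larger than any reported here for Rmdn2. That run does not bear on changes of the size seen here or on results that did not pass. Within groups, library pairs differed beyond sampling noise, with chi-square per degree of freedom of 3.79 to 7.04.

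Rmdn2, the gene lists (cell type markers, microtubule regulation) and the tests were chosen with earlier results of these data known. Named microtubule genes are the most abundant of the list as host sums, and the genes most alike are the 5 with the highest correlation of log2 CPM (prior count 2), with the most negative one.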

Additional observations from a re-analysis of the deposited data

How the results depend on the processing

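Of 130 recomputed values, 126 kept their direction and their side of the threshold or stayed within the spread between libraries. For the tested shares that side was fixed in advance, since the exact permutation test cannot go below 0.1. A replicate block leaves share differences unchanged by construction. The count is therefore no measure of how stable the shares were. The circular share difference of APAP from control livers, 24.9 points, counted as kept at 3.09 points (rings with lists in all libraries, without control 3). The share of the leading ring in APAP against control livers was 5.65 points with only rings of the shared start and 6.24 points with only rings read in all 8 deeper libraries. The difference in circular share of dmPGE2+APAP from APAP livers changed sign to 0.23 points without dmPGE2+APAP 3 and 0.07 points without APAP 3 (exact permutation p = 0.9 and 1.0). The cause was not tested. The circular share over rings with lists in all libraries, and the non-junction fits with and without control 3, were added after seeing the data. Leaving out each library in turn, the log2 fold change of the host sum was 0.42 to 0.64 for dmPGE2+APAP against APAP livers (edgeR adjusted p 0.108 to 1.00), -0.39 to -0.18 for dmPGE2+APAP against control livers and -0.97 to -0.77 for APAP against control livers. The circular share difference of dmPGE2+APAP from APAP livers was -2.06 to 0.23 points, and from control livers 5.45 to 37.1 points.

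Same-numbered libraries did not visibly deviate together (correlations of -0.01 to 0.02), and differently numbered ones had -0.03 to 0.02. Many hosts have few reads, so values near 0 cannot exclude that the numbers mark a pairing or a batch. With a replicate block the host sum had 0.51 in dmPGE2+APAP against APAP livers, -0.32 against control livers and -0.83 for APAP against control livers, and no call changed. Depth limits control 3, where 86 Rmdn2 reads stand behind all shares, and the exon 3–4 and exon 6–10 rings.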

Other observations

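Of the 6 nearest hosts of rings within 1 Mb of Rmdn2, 3 on each side, Hnrnpll, an RNA-binding protein of the hnRNP L family, was the most read. It had 979, 1019 and 1149.9 CPM in dmPGE2+APAP libraries, 1298, 1105 and 1011 CPM in APAP libraries and 1502, 1331 and 2293 CPM in control libraries. Its log2 fold change in dmPGE2+APAP against APAP livers was -0.10 ± 0.33 (SE, edgeR adjusted p = 1.00). Galm, an enzyme of galactose use, had 249, 383 and 636 CPM in dmPGE2+APAP libraries, 396, 375 and 202 CPM in APAP libraries and 732, 323 and 0 CPM in control libraries. No neighbour passed edgeR in any of the 3 comparisons.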
